A study of Mus musculus with 48 samples.

Results

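The libraries described here came from differentiated C2C12 muscle cells after 1 h of cyclic stretching and from non-stretched cells of the same time point. All differentiated libraries with the 1 h label were taken, 4 stretched and 4 non-stretched, which is 8 of the 48 libraries of the series, and all genes in their count table were considered. C2C12 is an established mouse myoblast line that fuses into multinucleated myotubes when it differentiates, so it is 1 immortalised line and not muscle tissue. The stretched cells were grown and differentiated on flexible, collagen-coated plates whose bottom was pulled equally in both directions over and over, while non-stretched cells sat on the same plates without that pulling. The labels give no genotype or drug that differed between the groups, and they call the molecule nuclear RNA while the study's methods describe an RNA extraction from whole cells. The rest of the series holds differentiated cells after 3 h and 6 h and undifferentiated myoblasts at these times and at 1 h, each time point with non-stretched cells of its own. The comparison asks which mRNAs had changed in myotubes after the shortest stretch.

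Cells that receive a mechanical or growth signal first transcribe immediate early genes, which need no new protein to be switched on. Many of these genes encode transcription factors such as the AP-1 subunits Fos and Fosb, the zinc finger factors of the Egr family and the orphan nuclear receptors of the Nr4a family. They are commonly joined by secreted proteins that respond to force, such as the CCN proteins, and by phosphatases and other inhibitors that feed back on the kinases that started the response. The mRNAs of most of these genes are short-lived, so their levels can rise and fall within hours.

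The 8 libraries held between 55358603 and 69053808 counts. The replicate names carry an experiment code. Non-stretched replicates 7 and 8 and stretched replicates 7 and 8 came from experiment B25. Non-stretched replicates 9 and 10 and stretched replicate 9 came from experiment B28. Stretched replicate 4 was the only library of experiment B17 and had no non-stretched library beside it, so the main fits were run with and without it. The study's methods describe these as independent experiments, with separate samples taken within an experiment. Libraries of 1 experiment share its conditions, so the p-values measure the spread between these samples, part of which may be technical. Pairs of replicates differed by far more than counting noise, with a mean chi-square between 11.8 and 109 per gene, and none was counted as a repeat of another. All 9 markers of differentiated muscle were abundant in every library (Myog, the transcription factor that starts terminal differentiation, lay between 756 and 957 CPM, the count as a share of the library's normalised total), and their median log2 difference between the groups was -0.03. Ttn alone varied widely, from 984 to 6460 CPM, within both groups. Markers of blood, endothelium and fat were near or at 0, with 1 of 6 passing the filter on low counts (Cd68) and Adgre1 at 0 in every library. The 12 markers of undifferentiated or cycling myoblasts summed to between 483 and 654 CPM in 7 libraries and to 935 CPM in stretched replicate 4. In replicate 4 all 10 proliferation markers of that list, such as Mki67 at 228 CPM against 95.7 to 144 CPM in non-stretched cells, were above every non-stretched library, while the myoblast factors Pax7 and Myf5 were not. The part of this difference in the results below was not tested.

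After 1 h of stretching, 14 of 15538 genes tested were upregulated and 28 were downregulated, where a call required edgeR's quasi-likelihood p-value, adjusted by Benjamini-Hochberg, to be under 0.05 and the log2 fold change to reach 0.58 in either direction (0.0901% and 0.18% of the genes tested). The rises were led by Fosb, Fos and Cyr61, a secreted CCN protein. The falls were led, where the mean count was 100 or more, by the zinc finger genes Zfp866 and Zfp760. Without stretched replicate 4, 27 genes were upregulated and 29 downregulated of 15734 tested (0.172% and 0.184%). Of these, 13 of the rises and 22 of the falls were called in both fits. Each of the 42 genes called with all 8 libraries had groups that did not overlap, as did 2.49% of all genes tested with the stretched libraries higher and 3.9% with them lower. The counts of calls depended on single libraries. Removal of any 1 non-stretched library left between 4 and 7 rises and between 5 and 11 falls, removal of stretched replicate 7 left 11 and 12, removal of stretched replicate 8 left 7 and 7, and removal of stretched replicate 9 gave 28 and 59.

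The largest rise was that of Fosb, an AP-1 subunit that pairs with Jun proteins (GENCODE chr7:19302696-19310051 on GRCm38, - strand). Non-stretched replicates 7, 8, 9 and 10 had 2.15, 1.95, 1.95 and 1.84 CPM, and stretched replicates 4, 7, 8 and 9 had 65.6, 21.8, 18.9 and 20.9 CPM. All stretched libraries were far above the non-stretched ones, and replicate 4 was by far the highest. The log2 fold change was 4.01 (SE 0.434, edgeR adjusted p = 0.00642), and without replicate 4 it was 3.38 (SE 0.0788, edgeR adjusted p = 8.95e-08). Fos, the best known partner of Jun, had 6.90, 5.54, 5.48 and 5.75 CPM in non-stretched cells. In stretched replicates 4, 7, 8 and 9 it had 87.7, 20.1, 21.9 and 30.9 CPM. The groups were again separate, with a log2 fold change of 2.76 (SE 0.453, edgeR adjusted p = 0.0302) and of 2.04 without replicate 4 (SE 0.149, edgeR adjusted p = 0.00019). Jun, the main partner of the Fos proteins, stayed under the fold-change threshold at 0.39 on the log2 scale (edgeR adjusted p = 0.0228).

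With all 8 libraries, edgeR called 2 of 31 tested immediate early transcription factors, Fos and Fosb, beside 0.0901% of all genes called as higher. DESeq2 called 10 of the 31 as higher on the same libraries, beside 44 of all 15538 genes tested. Of the 31, 29 had a higher mean in stretched cells. The median log2 fold change of the list was 0.50, and that of all genes tested was 0. Without replicate 4 the list held 7 calls, all upregulated, and its median was 0.33. A further 8 members passed the adjusted p-value but not the fold change in that fit, among them Klf6, a Krüppel-like zinc finger factor, at 0.53 and Ier2 at 0.47 on the log2 scale.

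The 5 factors that edgeR called only without replicate 4 were higher in every stretched library than in any non-stretched one. Egr1, a zinc finger factor induced by growth factor signals, had 218, 212, 205 and 202 CPM in non-stretched cells and 957, 389, 384 and 381 CPM in stretched replicates 4, 7, 8 and 9. Replicates 7, 8 and 9 lay close together, and the distance of replicate 4 from them widened the spread of the group. Its log2 fold change was therefore larger with all 8 libraries (1.33, SE 0.28, edgeR adjusted p = 0.0761) than without replicate 4 (0.88, SE 0.0384, edgeR adjusted p = 7.14e-06), while only the second was called. Nr4a1, an orphan nuclear receptor, had 21.6, 20.7, 20.9 and 22.5 CPM without stretching and 179, 49.8, 49.0 and 46.6 CPM in stretched replicates 4, 7, 8 and 9. The log2 fold change was 1.92 (edgeR adjusted p = 0.0867) and 1.18 without replicate 4 (SE 0.0437, edgeR adjusted p = 2.12e-06). Atf3, a stress-induced factor that can pair with AP-1 proteins, had 8.27, 6.53, 6.60 and 7.05 CPM in non-stretched and 44.9, 16.5, 16.8 and 12.8 CPM in stretched libraries. Its 3 lower stretched values were still above every non-stretched one, and the log2 fold change without replicate 4 was 1.11 (SE 0.113, edgeR adjusted p = 0.00221), against 1.67 (edgeR adjusted p = 0.0792) with it.

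Myc, a regulator of cell growth, had different baselines in the 2 experiments that hold both groups. Non-stretched libraries had 26.8 and 28 CPM in B25 and 34.9 and 37.2 CPM in B28, and stretched replicates 4, 7, 8 and 9 had 140, 59.0, 63.7 and 65.7 CPM. The mean log2 difference was 1.16 within B25 and 0.87 within B28, and the fold change without replicate 4 was 0.98 (SE 0.108, edgeR adjusted p = 0.0033), against 1.37 (edgeR adjusted p = 0.0536) with it. Csrnp1, a nuclear protein of the immediate early class, had 11.5, 10.9, 11.6 and 11.6 CPM without and 56.8, 20.5, 21.9 and 19.8 CPM with stretching. It rose by 0.86 on the log2 scale without replicate 4 (SE 0.0529, edgeR adjusted p = 7.42e-05) and was not called with it (1.38, edgeR adjusted p = 0.102). Egr2, the relative of Egr1, had 110 CPM in replicate 4 against 26.8 to 30 CPM in the other stretched and 20.4 to 24.6 CPM in the non-stretched libraries, and it was called in neither fit.

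**Figure D1:**
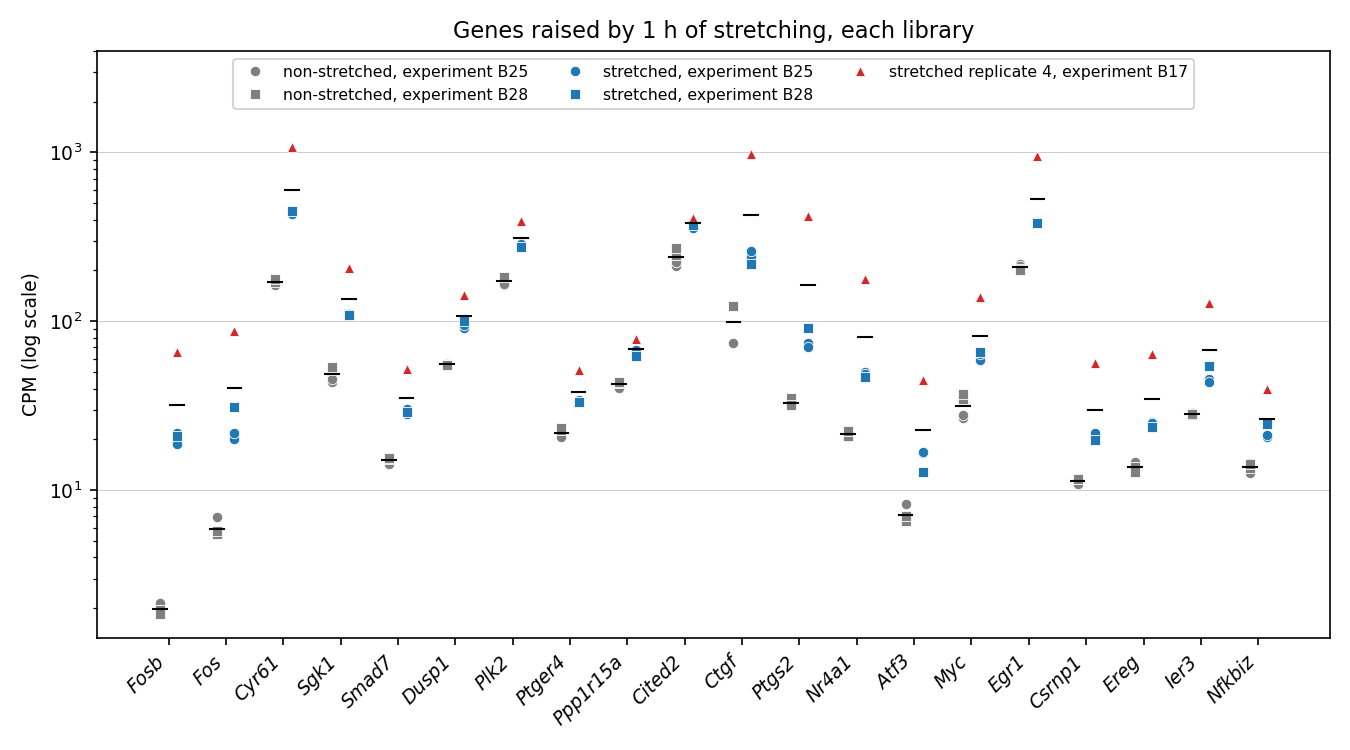
CPM on a log axis in each of the 8 libraries for 20 genes raised at 1 h, the 10 with the largest fold change among those called with all 8 libraries and a mean count of 100 or more, and then 10 listed genes called without stretched replicate 4. Grey symbols are non-stretched and blue and red symbols stretched libraries, circles are experiment B25, squares B28 and the red triangle replicate 4 of B17, and black bars are group means. For each gene all stretched libraries lie above all non-stretched ones, and for Fosb replicate 4 has 65.6 CPM against 18.9 to 21.8 CPM in the other stretched libraries.

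Among the secreted CCN proteins, Cyr61 rose in both fits and Ctgf in the fit without replicate 4, while Nov, Wisp1 and Wisp2 had 0.08, 0.11 and 0.15 on the log2 scale and passed in neither. Cyr61, also named Ccn1, is a matrix protein and a target of the mechanically regulated coactivator YAP (GENCODE chr3:145646976-145649981 on GRCm38, - strand). It had 165, 165, 170 and 179 CPM in non-stretched cells and 1080, 432, 450 and 447 CPM in stretched replicates 4, 7, 8 and 9. The stretched replicates other than replicate 4 differed little, and all were above every non-stretched library. The log2 fold change was 1.83 (SE 0.277, edgeR adjusted p = 0.0255) and 1.38 without replicate 4 (SE 0.0423, edgeR adjusted p = 5.39e-07). Ctgf, or Ccn2, its close relative, had 73.9 and 74.8 CPM in the non-stretched libraries of B25 and 123 and 124 CPM in those of B28. Stretched replicates 7 and 8 of B25 had 242 and 261 CPM, stretched replicate 9 of B28 had 217 CPM, and replicate 4 had 979 CPM. The mean log2 difference was 1.76 within B25 and 0.81 within B28, so the rise was present in both experiments. The value of B28 rests on stretched replicate 9 alone, so a difference in size between the experiments cannot be told from that library. Ctgf was called without replicate 4 (log2 fold change 1.28, SE 0.189, edgeR adjusted p = 0.0155) and not with it (2.10, SE 0.481, edgeR adjusted p = 0.102).

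Over the 20 tested CCN proteins and YAP targets, 16 had a higher mean in stretched cells. In edgeR, Cyr61 was the 1 call with all 8 libraries, and Cyr61 and Ctgf were the 2 calls without replicate 4. The median log2 fold change was 0.11 and 0.06 in these fits. DESeq2 called 3 of the 20 as higher with all 8 libraries, beside 44 of all 15538 genes tested. Ankrd1, a muscle ankyrin repeat protein and YAP target, had values of 0.56 and 0.42, and Amotl2 of 0.40 and 0.30, both past the adjusted p-value only without replicate 4 (edgeR adjusted p = 0.0482 for each). Edn1, the precursor of the vasoconstrictor endothelin, had log2 fold changes of 1.98 and 1.21 that passed in neither fit (edgeR adjusted p = 0.155 and 0.105).

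Among inducible kinases, Sgk1 and Plk2 rose and Clk1 fell. Sgk1, a kinase under control of growth factor and corticoid signals, had 43.6, 45.5, 51.3 and 53.5 CPM without stretching. Its stretched replicates 4, 7, 8 and 9 had 208, 111, 111 and 109 CPM. The values of replicates 7, 8 and 9 were nearly equal, and the log2 fold change was 1.48 (SE 0.201, edgeR adjusted p = 0.0162) and 1.19 without replicate 4 (SE 0.0667, edgeR adjusted p = 3.97e-05). Plk2, a polo-like kinase with a role in stress responses, had 165, 166, 182 and 184 CPM in non-stretched and 393, 288, 285 and 274 CPM in stretched libraries. It rose by 0.83 on the log2 scale (SE 0.107, edgeR adjusted p = 0.0133), and by 0.70 without replicate 4. Pim1, a survival kinase, had a log2 fold change of 0.57 with all libraries and of 0.58 without replicate 4 (edgeR adjusted p = 0.0277 and 0.0254), on either side of the fold-change threshold. The 9 kinases of this list held 2 rises and 1 fall with all libraries and 3 rises and 1 fall without replicate 4.

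In the list of genes that act on MAP kinase signals, mostly feedback inhibitors, Dusp1 rose in both fits, and Ier3 and Errfi1 in the fit without replicate 4. Dusp1, a phosphatase that switches off MAP kinases, had 56.1, 55.6, 55.1 and 55.3 CPM without and 144, 91.4, 95.1 and 101 CPM with stretching. The non-stretched libraries were almost identical, and the log2 fold change was 0.96 (SE 0.125, edgeR adjusted p = 0.0133) and 0.79 without replicate 4 (SE 0.0408, edgeR adjusted p = 2.3e-05). Ier3, which prolongs ERK signals, had 28.2, 28.6, 28 and 28.4 CPM without and 128, 45.8, 44.0 and 54.7 CPM with stretching. It was called only without replicate 4 (0.77, SE 0.0696, edgeR adjusted p = 0.00102, against 1.26 and 0.12 with it), as was Errfi1, an inhibitor of the EGF receptor (0.65, SE 0.073, edgeR adjusted p = 0.00351, against 1.13 and 0.153). Of 18 tested members 15 had a higher mean in stretched cells. In edgeR, 1 was called with all libraries and 3 without replicate 4, and the list's median was 0.18 and 0.12. DESeq2 called 2 as higher with all libraries, beside 44 of all 15538 genes tested. Dusp5, an ERK phosphatase of the nucleus, had 47.6 CPM in replicate 4, 15.2 to 17.4 CPM in the other stretched libraries and 11.2 to 13.6 CPM in the non-stretched ones, and passed in neither fit.

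Of the prostaglandin genes, Ptger4 rose in both fits and Ptgs2 in the fit without replicate 4. Ptgs2, the inducible cyclooxygenase that makes prostaglandin precursors, had 31.8, 33.3, 35.0 and 32.0 CPM in non-stretched cells. Stretched replicates 4, 7, 8 and 9 had 418, 74.5, 70.7 and 91.5 CPM. The rise was present in every stretched library, and replicate 4 moved the log2 fold change from 1.26 (SE 0.0836, edgeR adjusted p = 0.000115) to 2.31 (SE 0.547, edgeR adjusted p = 0.116), which ended the call. Ptger4, a receptor for prostaglandin E2, had 20.7, 20.6, 22.6 and 23.3 CPM without and 51.8, 34.3, 33.3 and 33.3 CPM with stretching. It was called in both fits, at 0.80 (SE 0.136, edgeR adjusted p = 0.0325) and at 0.62 (SE 0.0525, edgeR adjusted p = 0.000582). Socs3, an inhibitor of cytokine receptors, was high in 1 library alone, with 136 CPM in replicate 4, between 32.6 and 34.5 CPM in the other stretched libraries and between 29.2 and 34.3 CPM in the non-stretched ones. The 15 tested chemokines, cytokines and prostaglandin enzymes had a median of 0.23 with all libraries and of 0.09 without replicate 4, with no call by edgeR in the first fit (6 at an unadjusted p under 0.05, where 1386 of all 15538 genes were, and 1 call by DESeq2) and Ptgs2 alone in the second.

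Ereg, an EGF family growth factor, had 14.1, 14.6, 13.8 and 12.9 CPM without and 64.1, 25.3, 25 and 23.7 CPM with stretching. It rose by 0.84 on the log2 scale without replicate 4 (SE 0.0524, edgeR adjusted p = 7.42e-05) and was not called with it (1.32, edgeR adjusted p = 0.0992). The other EGF family ligands and receptors held no further call in either edgeR fit. DESeq2 called 2 of the 11 tested members as higher with all 8 libraries, beside 44 of all 15538 genes tested. Areg, a close relative of Ereg, had log2 fold changes of 1.01 and 0.63 (edgeR adjusted p = 0.212 and 0.155). Nfkbiz, an atypical nuclear inhibitor of NF-kappaB, had 14.5, 12.7, 13.5 and 14.3 CPM without and 39.6, 20.6, 21.2 and 24.7 CPM with stretching. It was the 1 call among 13 tested NF-kappaB subunits and targets without replicate 4 (0.69, SE 0.0766, edgeR adjusted p = 0.00351, against 0.95 and 0.0605 with it), and the median of that list was 0.05 with and -0.03 without replicate 4.

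Smad7, which blocks TGF-beta receptors, had 15.6, 14.2, 15.2 and 15.5 CPM in non-stretched and 52.3, 28.4, 30.4 and 28.9 CPM in stretched libraries. It was the 1 call among 23 tested genes of TGF-beta and BMP signaling in both fits, at 1.21 (SE 0.181, edgeR adjusted p = 0.0252) and 0.95 (SE 0.0494, edgeR adjusted p = 2.3e-05). Ppp1r15a, which helps to restart translation after stress, had 42.2, 40.4, 43.3 and 43.9 CPM without and 78.5, 65.7, 67.5 and 62.2 CPM with stretching. Here replicate 4 stood close to the other stretched libraries, and the log2 fold change was 0.69 (SE 0.0685, edgeR adjusted p = 0.00336) and 0.62 without it. Cited2, a transcriptional coregulator, had 212, 225, 247 and 271 CPM without and 408, 359, 388 and 372 CPM with stretching, a log2 fold change of 0.68 (SE 0.0761, edgeR adjusted p = 0.008) and of 0.64 without replicate 4. Trib1, a pseudokinase, was called without replicate 4 at 0.64 (edgeR adjusted p = 0.000399) and not with it (0.96, edgeR adjusted p = 0.0935). Taf7, a subunit of the general factor TFIID, was called with all 8 libraries at 0.60 (edgeR adjusted p = 0.0334) and lay under the fold-change threshold without replicate 4, at 0.51 (edgeR adjusted p = 0.0263).

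The other rises were of genes with few counts. Apol8, an apolipoprotein L, rose from between 0.590 and 0.806 CPM to between 1.43 and 3.25 CPM. RP24-344N22.5 rose from between 0.428 and 0.589 CPM to between 1.34 and 1.93 CPM, which is 1.68 on the log2 scale (edgeR adjusted p = 0.00336). Gm42462 rose from between 0.125 and 0.180 CPM to between 0.386 and 0.506 CPM. Gm20521, called without replicate 4, shares 97.7% of its 31-base stretches with other genes, mostly Pabpn1, so its count depends on how shared reads were divided and is uncertain.

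Promoter sequences from RefSeq (build GRCm38.p6) were searched for motifs in the 250 bases before each start site, on both strands. Entries matched 17 of the 28 genes upregulated in either fit, under 80%, so the share over the genes is void as a check and only the genes with a match are described. The cAMP response element TGACGTCA was present before 4 of these genes, Dusp1, Plk2, Ppp1r15a and Errfi1, in 2.96% of the tested genes with a promoter entry and in 1.55% of all 32851 promoter windows. The sequence TATAAA was present before Fos, Cyr61, Sgk1 and Errfi1, the last of which holds both, in 8.27% of the tested genes with an entry and in 12.4% of all windows. The AP-1 site TGANTCA was found before Csrnp1 alone of the 17 (5.84% of tested genes and 6.75% of all windows), and the CArG box before none of the 17 (1.44% and 1.47%). The 4 promoters with the cAMP response element and those of Fos and Cyr61, the largest rises with a TATAAA, are shown 5′ to 3′ with 1 motif each in capitals, the cAMP response element in the first 4 and TATAAA in Fos and Cyr61. A match is a sequence description and was not tested for binding.
Dusp1 (chr17:26508473-26508722, - strand): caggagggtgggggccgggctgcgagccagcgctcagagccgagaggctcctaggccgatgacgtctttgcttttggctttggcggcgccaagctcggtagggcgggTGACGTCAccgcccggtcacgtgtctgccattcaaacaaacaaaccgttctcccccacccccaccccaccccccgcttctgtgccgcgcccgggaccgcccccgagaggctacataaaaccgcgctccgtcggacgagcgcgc
Plk2 (chr13:110394794-110395043, + strand): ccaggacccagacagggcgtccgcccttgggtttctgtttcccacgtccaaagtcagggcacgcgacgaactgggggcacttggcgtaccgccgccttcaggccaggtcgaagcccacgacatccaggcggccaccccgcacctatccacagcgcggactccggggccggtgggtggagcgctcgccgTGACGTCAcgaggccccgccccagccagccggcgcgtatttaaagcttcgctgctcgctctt
Ppp1r15a (chr7:45526269-45526518, - strand): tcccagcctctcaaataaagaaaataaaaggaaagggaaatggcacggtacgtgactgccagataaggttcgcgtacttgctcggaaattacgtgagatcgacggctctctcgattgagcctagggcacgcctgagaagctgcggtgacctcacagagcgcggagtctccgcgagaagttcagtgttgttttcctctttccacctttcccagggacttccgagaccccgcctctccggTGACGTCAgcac
Errfi1 (chr4:150854820-150855069, + strand): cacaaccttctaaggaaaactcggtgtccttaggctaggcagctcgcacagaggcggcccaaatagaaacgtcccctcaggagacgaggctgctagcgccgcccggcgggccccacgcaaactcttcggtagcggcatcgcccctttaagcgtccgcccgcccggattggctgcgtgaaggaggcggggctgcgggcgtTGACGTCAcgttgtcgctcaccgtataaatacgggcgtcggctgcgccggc
Fos (chr12:85473640-85473889, + strand): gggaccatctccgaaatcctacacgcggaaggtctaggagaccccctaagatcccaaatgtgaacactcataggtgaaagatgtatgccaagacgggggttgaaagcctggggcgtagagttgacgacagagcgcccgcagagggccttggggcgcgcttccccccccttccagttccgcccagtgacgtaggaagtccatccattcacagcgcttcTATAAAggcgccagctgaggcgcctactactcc
Cyr61 (chr3:145649986-145650235, - strand): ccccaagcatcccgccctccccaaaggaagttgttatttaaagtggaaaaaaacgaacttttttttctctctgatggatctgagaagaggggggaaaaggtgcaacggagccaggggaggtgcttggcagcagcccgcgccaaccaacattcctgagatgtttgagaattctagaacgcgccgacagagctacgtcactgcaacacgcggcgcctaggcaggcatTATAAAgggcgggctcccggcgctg
The element lay 143 bases before the start in Dusp1, 62 in Plk2, 12 in Ppp1r15a and 51 in Errfi1, counted to its first base.

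Stretched replicate 4 moved in the same direction as the other stretched libraries in most of the genes called without it, and further in most of the rises. Of the 27 genes upregulated without replicate 4, it was above every non-stretched library in 27, and its change was the largest of the 4 stretched libraries in 24. Of the 29 genes downregulated without it, replicate 4 was below every non-stretched library in 27 and had the largest change in 14. Over all genes tested, replicate 4 was above every non-stretched library in 30.9% and below every one in 34.6%. How often its change was the largest over all genes tested was not computed. The 24 and the 14 therefore cannot be read as a trait of these genes. Among 11898 genes whose mean count was 100 or more, 145 differed by at least 1 on the log2 scale between replicate 4 and the non-stretched mean, and 21 did so between the mean of the other 3 stretched libraries and that same mean. The first count rests on 1 library and the second on a mean of 3, which lowers noise, so these counts are not alike. Limma's sample quality weights gave replicate 4 a weight of 0.284, the lowest of the 8, and the others weights between 0.714 and 1.82. Experiment B17 holds no non-stretched library, so a stronger response and a different baseline in this experiment cannot be told apart.

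**Figure D2:**
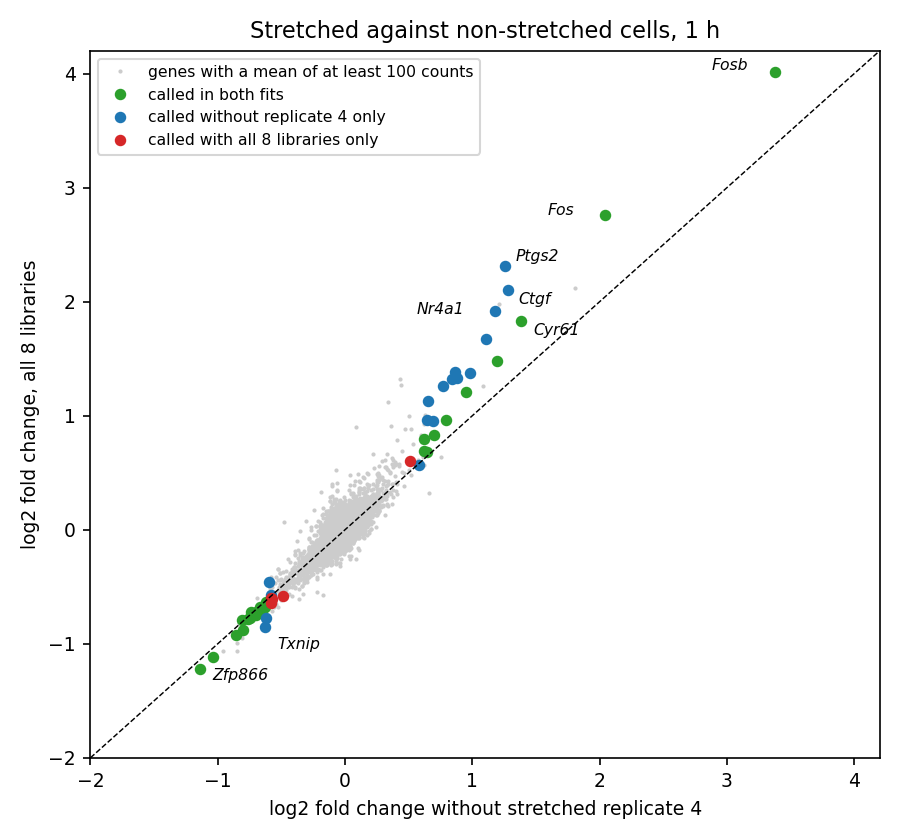
Log2 fold change at 1 h with all 8 libraries (vertical axis) against that without stretched replicate 4 (horizontal axis). Each point is a gene whose mean count was 100 or more, coloured where it was called, and the dashed line marks equal values. The largest rises lie above the line, as with Ptgs2 at 2.31 against 1.26, while Zfp866 lies near it, at -1.22 against -1.14.

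The falls called with all 8 libraries included zinc finger genes, homeodomain factors, a splicing kinase and ubiquitin ligase genes. Zfp866, a zinc finger gene (GENCODE chr8:69761326-69791178, - strand), had 21.1, 21.8, 19.7 and 19.1 CPM in non-stretched replicates 7, 8, 9 and 10. Stretched replicates 4, 7, 8 and 9 had 7.08, 10.1, 9.08 and 8.70 CPM. The stretched libraries were all well under the non-stretched ones, and the log2 fold change was -1.22 (SE 0.0991, edgeR adjusted p = 0.00185) and -1.14 without replicate 4 (SE 0.071, edgeR adjusted p = 7.42e-05). Zfp760 had 6.32, 5.71, 5.95 and 4.84 CPM without and 2.13, 2.63, 2.32 and 3.38 CPM with stretching. Its log2 fold change was -1.12 (SE 0.147, edgeR adjusted p = 0.0135) and -1.04 without replicate 4, with a mean difference of -1.28 within B25 and of -0.67 within B28. Zfp235 had 5.05, 5.18, 4.71 and 4.73 CPM without and 2.72, 2.85, 2.43 and 3.44 CPM with stretching (log2 fold change -0.78, SE 0.113, edgeR adjusted p = 0.0205, and -0.76 without replicate 4). The stretched replicate of B28 was the highest of its group for both genes and still below every non-stretched library. Zfp87 had 10.9, 9.77, 10 and 9.92 CPM without and 5.80, 6.43, 5.91 and 6.46 CPM with stretching (-0.72, SE 0.0692, edgeR adjusted p = 0.00336, and -0.70 without replicate 4).

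Transcription factors outside this family fell as well. Zbtb26, a zinc finger factor with a BTB domain, had 14.0, 12.1, 12.5 and 11.3 CPM without and 6.91, 7.16, 6.79 and 8.30 CPM with stretching (log2 fold change -0.77, SE 0.0891, edgeR adjusted p = 0.00854, and -0.75 without replicate 4). Six4, a homeodomain factor that acts upstream of the myogenic factors, had 66.7, 70.0, 72.4 and 65.6 CPM without and 35.8, 41.1, 37.7 and 51.7 CPM with stretching. The groups did not overlap, and the log2 fold change was -0.72 (SE 0.101, edgeR adjusted p = 0.0162) and -0.66 without replicate 4, the 1 call among 10 tested muscle transcription factors. Myog and Mef2c, markers of differentiation in that list, passed in neither fit. Hoxa3, a homeobox factor of body patterning, had 3.13, 3.89, 2.78 and 3.61 CPM without and 1.51, 1.71, 1.89 and 2.15 CPM with stretching (-0.88, SE 0.146, edgeR adjusted p = 0.0303, and -0.80 without replicate 4). Hoxa9 of the same cluster fell by 0.64 on the log2 scale with all libraries (edgeR adjusted p = 0.0303) and lay at the fold-change threshold, at -0.58, without replicate 4, where it was not called.

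Clk1, a kinase that phosphorylates SR splicing factors, had 64.5, 56.8, 57.2 and 55.0 CPM in non-stretched cells. Stretched replicates 4, 7, 8 and 9 had 34.6, 29.2, 29.5 and 41.2 CPM. All stretched libraries were lower, with a mean log2 difference of -1.04 in B25 and of -0.44 in B28, where stretched replicate 9 stood alone. The log2 fold change was -0.79 (SE 0.105, edgeR adjusted p = 0.0135) and -0.81 without replicate 4. Clk4, its close relative, had -0.30 with all libraries (edgeR adjusted p = 0.12) and -0.32 without replicate 4, with groups that did not overlap, and its effect at 1 h differed from that at 3 h by -0.66 (edgeR adjusted p = 0.000517). None of the 14 tested SR proteins and further SR kinases was called by edgeR in either fit or by DESeq2, and 2 had an unadjusted p under 0.05 in each edgeR fit. Srsf5 came nearest, with a log2 fold change of 0.34 that passed the adjusted p-value with all libraries (edgeR adjusted p = 0.045). Mylip, a ubiquitin ligase that marks the LDL receptor for degradation and a target of the sterol sensor LXR, had 19.9, 20.5, 20 and 21.0 CPM without and 10.9, 12.9, 12.7 and 11.9 CPM with stretching. The values within each group were tight, and the log2 fold change was -0.75 (SE 0.0609, edgeR adjusted p = 0.00185) and -0.70 without replicate 4. It was the 1 call among 13 tested LXR targets and sterol genes. Kctd21, an adaptor for ubiquitin ligases, had 4.41, 3.90, 3.59 and 4.18 CPM without and 1.83, 2.09, 1.78 and 2.79 CPM with stretching (-0.92, SE 0.149, edgeR adjusted p = 0.0295, and -0.86 without replicate 4).

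**Figure D3:**
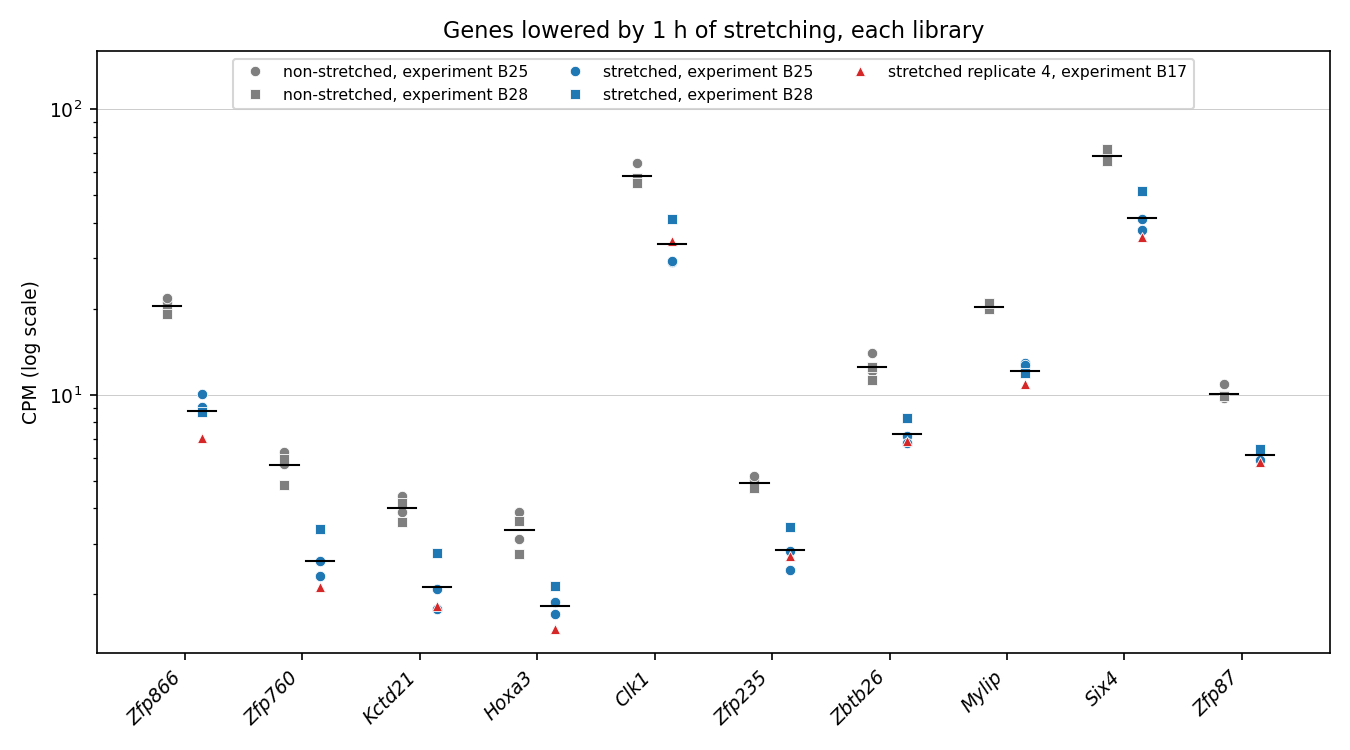
CPM on a log axis in each of the 8 libraries for the 10 genes with the largest fall among those called with all 8 libraries and a mean count of 100 or more. Grey symbols are non-stretched and blue and red symbols stretched libraries, circles are experiment B25, squares B28 and the red triangle replicate 4 of B17, and black bars are group means. For each gene all stretched libraries lie below all non-stretched ones, as with Zfp866, where the stretched libraries have between 7.08 and 10.1 CPM and the non-stretched ones between 19.1 and 21.8 CPM.

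The falls were not limited to the zinc finger genes called singly. Genes whose symbol is Zfp and a number mostly encode C2H2 zinc finger proteins, many of them DNA-binding repressors, and the mRNA-binding Zfp36 was left out of the family. Of 342 such genes 301 passed the filter on low counts. In edgeR, 8 were called as lower with all 8 libraries and 9 without replicate 4 (Zfp60, Zfp87, Zfp189, Zfp235, Zfp626, Zfp658, Zfp760, Zfp866 and Zfp964), beside 0.18% and 0.184% of all genes tested. DESeq2 called 15 as lower with all 8 libraries, beside 54 of all genes tested. None was called as higher by edgeR in either fit or by DESeq2. At an unadjusted p under 0.05 in edgeR, 142 of the 301 passed in either direction, 6 of them higher. Over all genes tested these numbers were 1386 and 494. Without replicate 4, 133 of the family passed, 5 of them higher, beside 1329 and 453 of all genes tested. The median log2 fold change was -0.15 with all libraries and -0.16 without replicate 4, and 235 of 301 and 234 of 303 genes had a lower mean in stretched cells. Over all genes tested the median was 0, and 7779 of 15538 had a lower mean. The shift was present in each stretched library. Set against the average non-stretched level, 75.4%, 78.4%, 82.7% and 69.1% of the 301 genes were lower in stretched replicates 4, 7, 8 and 9, and between 49.6% and 51.5% of all genes were. In 99 genes (32.9%) all stretched libraries were below all non-stretched ones, and in 7 they were all above, against 3.9% and 2.49% of all genes tested. The 9 genes that edgeR called lie on chromosomes 4, 7, 8, 13 and 17, with Zfp866 and Zfp964 near each other on chromosome 8 (from 69761326 and 69654479) and Zfp60 and Zfp626 on chromosome 7 (from 27731389 and 27807196). These called genes share between 0.333% and 13.1% of their 31-base stretches exactly with other genes. The part of shared or near-identical reads in the falls was not tested, and the rest of the family was not searched.

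**Figure D4:**
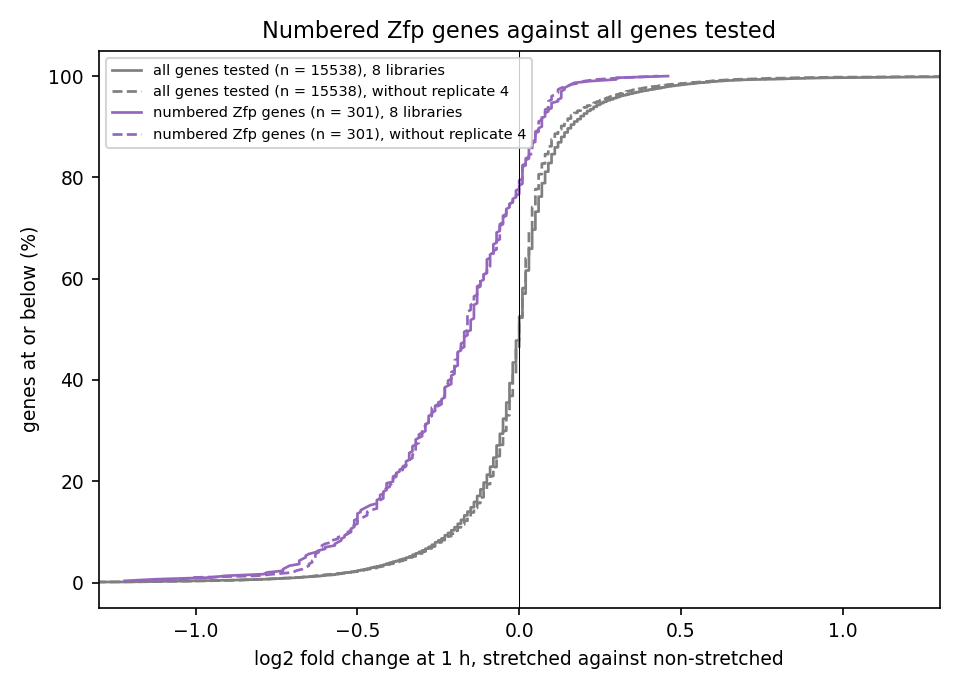
Cumulative share of genes (vertical axis, in percent) at or below each log2 fold change at 1 h (horizontal axis), for all genes tested in grey and for the 301 numbered Zfp genes in purple. Solid lines use all 8 libraries and dashed lines leave out stretched replicate 4. The purple curves lie to the left, with medians of -0.15 and -0.16 against 0 for all genes.

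A few genes were called as lower only where replicate 4 was left out. Txnip, a thioredoxin-binding protein that limits glucose uptake, had 75.8, 74.6, 58.7 and 65.8 CPM without stretching and 44.4, 42.0 and 46.3 CPM in stretched replicates 7, 8 and 9, with 19.7 CPM in replicate 4. Its log2 fold change was -0.63 without replicate 4 (SE 0.0857, edgeR adjusted p = 0.00969) and -0.85 with it (edgeR adjusted p = 0.155). Bmf, a cell death promoting Bcl2 relative, had 19.4, 17.3, 16.7 and 18.0 CPM without and 6.89, 11.1, 11.4 and 12.3 CPM with stretching. It was called without replicate 4 (-0.62, SE 0.0663, edgeR adjusted p = 0.0028) and just missed with it (-0.77, edgeR adjusted p = 0.0541). Ddit4, a stress-induced inhibitor of mTORC1, differed from both. It had 20.8, 21.5, 24.7 and 25.4 CPM without stretching and 15.2, 14.8 and 15.8 CPM in stretched replicates 7, 8 and 9, while replicate 4 had 21.4 CPM, within the range of the non-stretched libraries. Its log2 fold change was -0.60 without replicate 4 (SE 0.0781, edgeR adjusted p = 0.00827) and -0.46 with it (edgeR adjusted p = 0.153).

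The remaining falls included the receptors Tnfrsf25 and Tnfrsf18 of the TNF receptor family, the lectin-like receptor Clec2d, the homeobox gene Hdx, the DNase Dnase1l2, and genes without an established role such as 0610030E20Rik, 4632415L05Rik, Gm42979 and Gm26621. Tnfrsf25 had -0.72 on the log2 scale (edgeR adjusted p = 0.0395). Tnfrsf18 had -1.67, at a mean of 18.5 counts. Of the 42 calls with all libraries 11 had a mean under 100 counts, where counting noise is larger. Gm10778 shares 97.8% of its 31-base stretches with other genes and Gm10171 shares 100%, the latter with Timm23, so both counts are uncertain. RP24-491O6.1 had no counts in stretched replicates 7, 8 and 9, between 0.217 and 0.285 CPM in non-stretched libraries and 0.189 CPM in replicate 4.

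Of the 20 gene lists, 9 held no call by edgeR in either fit and none by DESeq2. These lists cover mRNA decay factors, actin cytoskeleton genes and targets of the serum response factor, sarcomere genes, the acetylcholine receptor and neuromuscular junction, heat shock chaperones, mechanosensitive channels, NFAT and calcineurin, Notch, and SR proteins, with 131 genes tested. At an unadjusted p under 0.05, 14 of them passed with all libraries and 14 without replicate 4, beside 1386 of 15538 and 1329 of 15734 over all genes tested. The 33 sarcomere and stress-responsive muscle genes lay between -0.37 and 0.18 on the log2 scale, with a median of -0.04. The 23 actin and serum response factor genes had a median of 0.14 with all libraries and of 0.03 without replicate 4, and 21 and 17 of them had a higher mean in stretched cells. The 12 heat shock chaperones lay between -0.02 and 0.26. Among mRNA decay factors, Btg2 had a log2 fold change of 0.52 without replicate 4 (edgeR adjusted p = 0.00103), under the fold-change threshold, and Zfp36, which destabilises AU-rich mRNAs, one of -0.48 (edgeR adjusted p = 0.0211) that became 0.07 with replicate 4 included. In the integrated stress response list, Ppp1r15a was the 1 call with all libraries, and the median of its 14 genes was -0.09.

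The differentiated cells stretched for 3 h and 6 h had non-stretched libraries of their own, so the 1 h changes can be set beside theirs. At 3 h 138 genes were upregulated and 115 downregulated (0.89% and 0.741% of those tested), and at 6 h 80 and 235 (0.518% and 1.52%). Of the 14 genes upregulated at 1 h, Fosb and Gm42462 were also upregulated at 3 h, which is 14.3% of the 1 h genes and 1.45% of the 3 h genes. Of the 27 upregulated without replicate 4, 6 were also upregulated at 3 h (22.2% and 4.35%), namely Atf3, Ctgf, Errfi1, Fosb, Gm42462 and Ptgs2. At an unadjusted p under 0.05 in edgeR, 6 of the 14 and 13 of the 27 were higher at 3 h. Some of these missed the fold-change threshold alone, such as Ereg at 0.44 and Smad7 at 0.40 (edgeR adjusted p = 0.00264 and 0.00296). At 6 h none of either set was called as upregulated by edgeR or DESeq2, and 0 of the 14 and 1 of the 27 were higher at an unadjusted p under 0.05. Of the 29 genes downregulated without replicate 4, Bmf and Txnip were also lower at 3 h and at 6 h. None of the 28 downregulated with all libraries was called as lower at either time by edgeR or DESeq2, with 9 lower at 3 h and 2 at 6 h at an unadjusted p under 0.05. The median log2 fold change of the 14 rises was 1.34 at 1 h, 0.08 at 3 h and -0.11 at 6 h, and that of the 28 falls was -0.78, -0.18 and 0.09. The 1 h values in these medians are larger by selection, since the genes were chosen at 1 h.

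The difference between the times was tested with an interaction term in 1 model of all 24 differentiated libraries. The genes named below were picked by their change at 1 h, in libraries that this test uses again. Their differences are therefore larger by selection. In 63 genes of 16266 the stretch effect was higher at 1 h than at 3 h and in 75 lower (0.387% and 0.461%), and against 6 h it was higher in 220 and lower in 187 (1.35% and 1.15%). Fos had a log2 fold change of -0.46 at 3 h, and its effect was larger at 1 h than at 3 h by 3.23 (edgeR adjusted p = 0.000133). Fosb was still higher at 3 h, at 0.77, and its effect at 1 h exceeded that by 3.24 (edgeR adjusted p = 0.000205). Without replicate 4 the edgeR adjusted p of these differences was 1.17e-08 for Fos and 8.6e-07 for Fosb. No difference between 1 h and 3 h was called for Ctgf. Its fold change was 1.01 at 3 h, and the difference of 1.09 had an adjusted p of 0.276 in edgeR, or 0.723 without replicate 4. Its effect at 6 h was -0.10, and the difference from 1 h was 2.20 (edgeR adjusted p = 0.00767). Pim1 was lower than in non-stretched cells at 3 h, at -0.53, a difference from 1 h of 1.10 (edgeR adjusted p = 5.06e-06).

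Among the falls, Zfp866 had log2 fold changes of -0.08 at 3 h and 0.11 at 6 h, and its 1 h effect differed from these by -1.14 and -1.32 (edgeR adjusted p = 6.75e-07 and 3.23e-08). Clk1 moved from -0.79 at 1 h to 0.19 at 3 h and 0.22 at 6 h, differences of -0.98 and -1.02 (edgeR adjusted p = 5.04e-05 and 2.38e-05). Hoxa3 and Kctd21 still had log2 fold changes of -0.54 and -0.51 at 3 h, and no difference between 1 h and 3 h was called for them (edgeR adjusted p = 0.318 and 0.231). Mylip had -0.30 at 3 h and -0.29 at 6 h, each differing from 1 h by -0.45 (edgeR adjusted p = 0.00127 and 0.000651), which is under the fold-change threshold. Txnip and Bmf were also lower later, with -0.99 and -0.82 at 3 h and -0.82 and -0.71 at 6 h, and the edgeR adjusted p of their differences from 1 h was between 0.854 and 0.963. The median of the numbered Zfp genes was -0.09 at 3 h and 0.06 at 6 h.

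**Figure D5:**
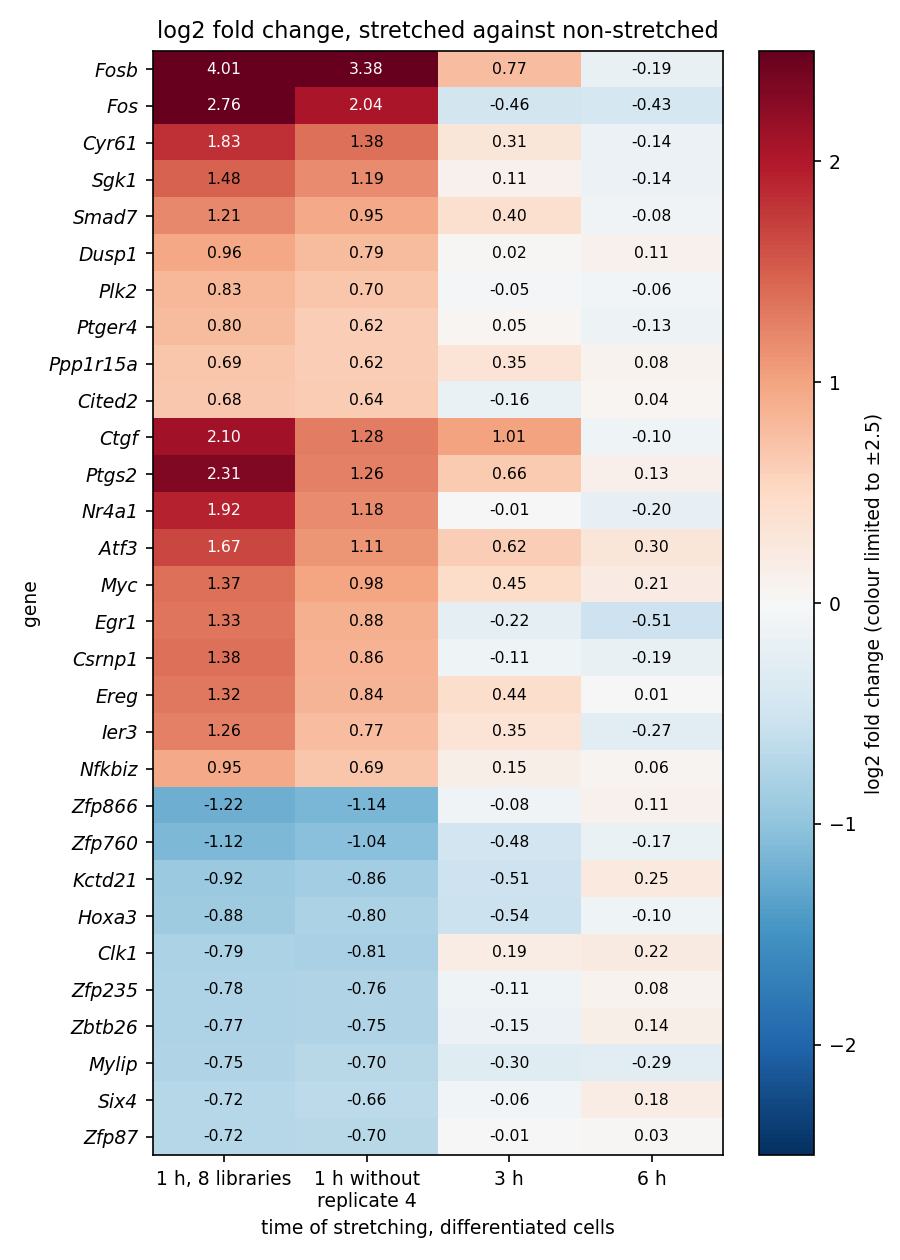
Log2 fold change of stretched against non-stretched differentiated cells for the 30 genes described by library (rows), at 1 h with all 8 libraries, at 1 h without stretched replicate 4, at 3 h and at 6 h (columns). Red is higher and blue lower in stretched cells, with the value in each cell and the colour limited to 2.5 in either direction. At 3 h some genes keep part of their change, as with Ctgf at 1.01, Fosb at 0.77 and Hoxa3 at -0.54. Others do not, as with Zfp866 at -0.08 and Fos at -0.46. At 6 h these genes are, in the same order, at -0.10, -0.19, -0.10, 0.11 and -0.43.

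The 1 h response of undifferentiated myoblasts came from separate cultures and a separate count table, in which 38 genes were upregulated and 149 downregulated (0.254% and 0.997%). No test was run between the stages. Of the 14 rises in differentiated cells 8 were also upregulated in myoblasts (57.1% of these and 21.1% of the myoblast genes), and of the 27 without replicate 4 there were 15 (55.6% and 39.5%). Of the 28 falls 18 were also downregulated in myoblasts (64.3% and 12.1%). The shared rises included Fos (2.16 in myoblasts), Fosb (2.09), Egr1 (1.4), Nr4a1 (1.08), Ptgs2 (1.01) and Dusp1 (0.98) on the log2 scale. Zfp866 had -1.51, Zfp760 -1.29 and Mylip -0.85 in myoblasts, and the median of the numbered Zfp genes there was -0.20. Smad7 and Plk2, called in differentiated cells, had 0.47 and 0.43 in myoblasts, under the fold-change threshold, and Errfi1 had 0.11 (edgeR adjusted p = 0.137). Txnip, lower at every time in differentiated cells, had 0.22 in myoblasts (edgeR adjusted p = 0.0724).

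The genes called at 1 h had a smaller median genomic span and fewer exons than all genes tested, while the transcript length differed less. The median span was 8.20 kb for the rises and 10.3 kb for the falls in either fit, against 19.5 kb for all genes tested, and the median of the largest exon number of a transcript was 5 and 4 against 8. The median longest transcript was 2801 bases for the rises and 3065 for the falls, against 3116. Gene models of GENCODE vM21 matched 27 of 28 rises, 33 of 35 falls and 14982 of 15538 genes tested. Of those with a model, 96.3% of the rises and 78.8% of the falls were protein coding, against 85.2% of all genes tested. Some falls were short noncoding entries with 1 exon, such as 4632415L05Rik and Gm37584, and the medians were not split by gene type. These are descriptions of the called genes, with no test.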

How the data were processed

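RNA from C2C12 cells was sequenced as stranded mRNA libraries. The authors aligned reads to mm10 with STAR, quantified genes with Salmon, which divides reads shared by genes, and deposited whole-number counts per gene, 1 table per differentiation stage and not normalised. The 8 libraries of differentiated cells at 1 h (55358603 to 69053808 counts each) were grouped by label. Genes passing edgeR's filterByExpr were normalised by TMM and compared two-sided in R 4.3.3 by edgeR 4.0.16 (quasi-likelihood, no covariates), with Benjamini-Hochberg adjustment over all genes tested. Calls needed an adjusted p under 0.05 and a log2 change of 0.58 or more in either direction. The authors' comparisons with DESeq2 were not used. Effects at 1 h, 3 h and 6 h were compared with interaction terms over 24 libraries. CPM were computed from TMM-scaled totals, and differences within experiments from log2 CPM with a prior count of 1. Alternatives used DESeq2 1.42.0, limma 3.58.1, other filters and scalings, the experiment or the replicate number as a term, and removal of each library. Scripts were tested on simulated data.

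The members and gene lists were chosen with earlier results of these data known. Genes could be named where they were called with or without stretched replicate 4 or belonged to a list. Values per library were given for the 10 largest called changes in each direction among genes averaging 100 counts or more, and for listed genes. Gene positions came from GENCODE vM21 and promoters from RefSeq. A member of the lists is not reported here.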

Additional observations from a re-analysis of the deposited data

Results flagged for a closer look

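In 19 of the 33 genes looked at for a library apart from its group, stretched replicate 4 lay so far above the other 3 stretched libraries that its gap exceeded Dixon's 95% critical value for 4 samples, and no group of non-stretched libraries had such a library. Chance alone marks about 1 in 20 groups of this size, and the 19 genes share 1 library and are not independent of each other. That rate holds for genes picked without regard to their values. Of the 33 genes, Socs3, Egr2 and Dusp5 were added after their values had been seen. The listed genes among them that were called only without replicate 4 were picked by a rule that depended on that library. The count of 19 therefore cannot be set against that rate. The values in replicate 4 were 65.6 CPM for Fosb, 87.7 for Fos, 957 for Egr1, 110 for Egr2, 179 for Nr4a1, 44.9 for Atf3, 140 for Myc and 56.8 for Csrnp1, all transcription regulators. They were 1080 CPM for Cyr61, 979 for Ctgf, 418 for Ptgs2, 51.8 for Ptger4, 64.1 for Ereg and 136 for Socs3 among secreted proteins, prostaglandin genes and cytokine regulators. They were 208 CPM for Sgk1, 393 for Plk2, 47.6 for Dusp5, 128 for Ier3 and 52.3 for Smad7 among kinases and other genes that act on signals. Replicate 4 was the only library of its experiment, so its response and that experiment cannot be told apart.

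The stretch effect of many of the genes given by library differed between 1 h and a later time in differentiated cells, by edgeR's test of the interaction. These genes were picked by their change at 1 h, in libraries that this test uses again, so their differences are larger by selection. Over all 16266 genes, the effect was called as higher at 1 h than at 3 h in 0.387% and as lower in 0.461%. Against 6 h the shares were 1.35% and 1.15%. The differences listed against 3 h and 6 h include stretched replicate 4, whose experiment is absent at those times. Without it the edgeR adjusted p against 3 h was 8.6e-07 for Fosb, 1.17e-08 for Fos and 3.73e-08 for Nr4a1. For Atf3, Ereg and Ier3, not listed against 3 h, it was 0.0475, 0.0454 and 0.0288, against 0.0937, 0.0996 and 0.086 with replicate 4. In log2 units, the effect at 1 h minus that at 3 h was 3.24 for Fosb, 3.23 for Fos, 1.93 for Nr4a1, 1.56 for Egr1, 1.52 for Cyr61, 1.5 for Csrnp1, 1.37 for Sgk1, 0.94 for Dusp1, 0.88 for Plk2, 0.85 for Cited2, 0.81 for Smad7, 0.80 for Nfkbiz and 0.75 for Ptger4. Among the genes that fell it was -1.14 for Zfp866, -0.98 for Clk1, -0.71 for Zfp87, -0.66 for both Zfp235 and Six4, -0.64 for Zfp760 and -0.62 for Zbtb26.

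The effect at 1 h minus that at 6 h was 4.2 for Fosb, 3.19 for Fos, 2.20 for Ctgf, 2.18 for Ptgs2, 2.13 for Nr4a1, 1.96 for Cyr61, 1.85 for Egr1, 1.62 for Sgk1, 1.58 for Csrnp1, 1.53 for Ier3, 1.37 for Atf3, 1.31 for Ereg, 1.29 for Smad7, 1.16 for Myc, 0.94 for Ptger4, 0.90 for Plk2, 0.89 for Nfkbiz, 0.85 for Dusp1, 0.64 for Cited2 and 0.61 for Ppp1r15a. It was -1.32 for Zfp866, -1.17 for Kctd21, -1.02 for Clk1, -0.95 for Zfp760, -0.91 for Zbtb26, -0.90 for Six4, -0.86 for Zfp235, -0.78 for Hoxa3 and -0.75 for Zfp87.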

How the results depend on the processing

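The 14 rises and 28 falls at 1 h varied with the library left out, from 4 to 28 rises and from 5 to 59 falls. The falls were 29 without stretched replicate 4, and the rises were 27. Upregulated and downregulated genes numbered 44 and 54 with DESeq2, 34 and 53 with limma's sample quality weights, 59 and 67 in 1 model of all 24 libraries, and 30 and 73 by adjusted p alone. With no filter on low counts there were 28 and 38. With the experiment as a covariate there were 30 and 36, and the same counts followed without replicate 4, since experiment B17 holds that library alone. Rises made up 33.3% of the calls, 44.9% with DESeq2 and 34.1% with its size factors in edgeR. With the replicate number as a block (replicate block) there were 29 and 27; the numbers 7, 8 and 9 occur in both groups, but the deviations of same-numbered libraries correlated at only 0.141, 0.06 and 0.055, so they were not taken as pairs. Differences between 1 h and 3 h numbered 138, 212 with the block, 219 with the experiment and 838 by adjusted p alone, with 123 to 179 on leaving out 1 library, and those between 1 h and 6 h numbered 407 and 1928 by adjusted p alone, with 347 to 532. Of the 42 genes, 9 kept their call under all 17 alternatives (Cited2, Fosb, Mylip, Ppp1r15a, RP24-344N22.5, Zbtb26, Zfp626, Zfp866 and Zfp87), and none of the genes called with or without replicate 4 changed direction. Why the counts moved was not tested. Of the 42 calls, 11 had a mean under 100 counts.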
